A study of Mus musculus with 12 samples.

Results

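Sperm swim on ion gradients and cyclic AMP (cAMP), and 8 genes that carry this work were followed in mouse testis: Kcnu1, Lrrc52, Slc9c1, Atp1a4, Atp2b4, Slc26a8, Adcy10 and Prkaca. They were listed by symbol, matched to Ensembl identifiers, for their roles in potassium, proton, sodium, calcium and bicarbonate handling and in cAMP signalling. All 8 were among the 21959 genes of the deposited count table, and all 8 passed the filter on low counts that left 15682 genes for testing. The tissue was testis of wild type male mice of the ICR stock, 8 months old at the start and 9 months old at collection, an age the study took as a model of natural reproductive ageing. They were given saline or a blueberry extract by gavage each day, the extract at 50, 100 or 200 mg/kg, with 3 libraries in each of the 4 groups and no younger mice among the libraries analysed here. The study asked, among other things, how the extract bears on the sperm motility of ageing males. The labels do not say that each library came from its own mouse, so a p-value measures how much these libraries vary, and part of that may be technical.

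In a sperm cell, bicarbonate and calcium switch on the soluble adenylyl cyclase, cAMP frees the catalytic subunit of protein kinase A, and the kinase speeds up the beat of the tail. A rise in internal pH, set partly by a sperm sodium/proton exchanger, opens the sperm potassium channel and the CatSper calcium channel, while ATP-driven pumps keep sodium and calcium low inside the cell. Mature sperm make almost no new RNA, so transcripts measured in testis are those of the germ cells that build the sperm and of the somatic cells around them. In such bulk tissue, fewer cells of a type and less RNA per cell cannot be told apart.

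Total counts ran from 14382378 to 19118265 per library. Within groups, pairs of libraries differed by a chi-square of 1.59 to 3.07 per degree of freedom, except for the third 100 mg/kg library, which stood apart from the first at 12.2 and from the second at 8.06. Results of the 8 genes at 100 mg/kg against saline are therefore also given without that library. Values of other genes, marker lists and length groups at that dose include it unless stated. All 12 spermatocyte, 12 round spermatid and 12 elongating spermatid markers listed averaged over 1 CPM (counts scaled to library size). Of 10 epididymis and seminal vesicle markers, 1 exceeded 1 CPM, Lcn8 was at 0, and the list summed to at most 4.93 CPM in any library.

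On GRCm38, with GENCODE M21 gene models, 4 of the 8 genes lie on chromosome 1, all protein coding. Atp2b4 (ENSMUSG00000026463) spans chr1:133699457-133801041, Adcy10 (ENSMUSG00000026567) chr1:165485183-165576774, Lrrc52 (ENSMUSG00000040485) chr1:167445669-167466780 and Atp1a4 (ENSMUSG00000007107) chr1:172223513-172258414. Adcy10, Lrrc52 and Atp1a4 fit within 6.77 megabases. Kcnu1 (ENSMUSG00000031576, chr8:25849623-25937939) and Prkaca (ENSMUSG00000005469, chr8:83972993-83996443) are on chromosome 8. Slc9c1 (ENSMUSG00000033210) spans chr16:45535309-45607001 and Slc26a8 (ENSMUSG00000036196) chr17:28637783-28690233. Atp2b4, Lrrc52, Atp1a4 and Slc26a8 lie on the minus strand and the other 4 on the plus strand. Adcy10, Atp1a4 and Atp2b4 overlap antisense RNAs, a pseudogene or small RNAs that are not in the count table, and since no source used here gives the strand setting of the counting, reads of such transcripts cannot be told apart from reads of the gene.

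RefSeq promoter windows on GRCm38.p6, covering 250 bases before to 50 bases after a start, were matched for 7 of the 8 genes. Those of Prkaca, Adcy10 and Slc9c1 are shown. Prkaca has 2 annotated starts whose RNAs a count per gene adds together, and it is known to make a sperm-specific kinase form from its own first exon. Adcy10 and Slc9c1 encode the cyclase and the exchanger, and both fell at 100 mg/kg. Capitals mark TGACG, the half-site of the cAMP response element, and CCAAT, on either strand (CGTCA and ATTGG on the other).
Prkaca, upstream start, chr8:83972728-83973027, plus strand: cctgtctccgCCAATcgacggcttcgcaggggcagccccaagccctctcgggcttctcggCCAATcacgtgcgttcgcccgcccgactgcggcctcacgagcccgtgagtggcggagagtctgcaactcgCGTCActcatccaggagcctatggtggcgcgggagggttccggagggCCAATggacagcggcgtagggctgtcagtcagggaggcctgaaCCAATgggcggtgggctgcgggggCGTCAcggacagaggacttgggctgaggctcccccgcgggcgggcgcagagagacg
Prkaca, downstream start, chr8:83976633-83976932, plus strand: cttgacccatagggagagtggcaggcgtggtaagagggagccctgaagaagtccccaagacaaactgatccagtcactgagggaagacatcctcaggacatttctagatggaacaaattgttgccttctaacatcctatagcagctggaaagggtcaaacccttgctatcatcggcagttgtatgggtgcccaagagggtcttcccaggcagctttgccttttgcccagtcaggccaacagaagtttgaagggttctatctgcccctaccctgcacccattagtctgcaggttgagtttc
Adcy10, chr1:165484933-165485232, plus strand: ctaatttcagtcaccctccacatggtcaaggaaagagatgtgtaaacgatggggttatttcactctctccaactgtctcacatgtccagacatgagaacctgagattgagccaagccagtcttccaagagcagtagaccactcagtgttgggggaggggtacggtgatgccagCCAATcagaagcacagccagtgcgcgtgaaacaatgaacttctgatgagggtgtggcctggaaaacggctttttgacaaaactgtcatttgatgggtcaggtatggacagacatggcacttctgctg
Slc9c1, chr16:45535016-45535315, plus strand: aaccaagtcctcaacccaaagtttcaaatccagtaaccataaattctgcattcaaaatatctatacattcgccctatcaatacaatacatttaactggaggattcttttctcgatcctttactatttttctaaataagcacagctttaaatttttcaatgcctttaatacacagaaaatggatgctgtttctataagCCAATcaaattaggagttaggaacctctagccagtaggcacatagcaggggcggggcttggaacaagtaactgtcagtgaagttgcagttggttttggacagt
The upstream Prkaca window is 69.7% G and C and holds 2 TGACG, 4 CCAAT and 3 GGGCGG (GC box) matches. The downstream window, 3905 bases further on, is 51.3% G and C and holds none of these. The Adcy10 window holds 1 CCAAT, 77 bases before the start. The Slc9c1 window, at 37.3% G and C, holds 1 CCAAT 53 bases before the start and 1 GGGCGG 5 bases before it. Of 32851 promoter windows of the same length, 20.8% held TGACG on either strand, 37.4% CCAAT and 35.7% GGGCGG. The full element TGACGTCA, which contains the half-site, was in 1.79% of them, and TATAAA in 13.6%. Neither was found in the 4 windows shown.

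Levels can be set beside each other only per length, as RPKM (reads per kilobase of annotated exon, scaled to library size). The order depends on the length used. Annotated exon and longest transcript are 8739 and 5569 bases for Adcy10, 4756 and 3670 for Slc26a8, and 2488 and 2276 for Prkaca. An order per base of longest transcript was not worked out and could differ. In saline testes Atp1a4, the sodium pump subunit of male germ cells, led at a mean of 302.9 RPKM, above 99% of the tested genes with a length. Prkaca followed at 58.4 RPKM. Slc9c1 at 49.1 and Adcy10 at 48.9 RPKM overlapped between libraries and have no order. Below them came Slc26a8 at 43.2, Lrrc52 at 32, Kcnu1 at 27.1 and Atp2b4 at 11 RPKM, with no overlap between neighbours. Atp2b4, the least abundant of the 8, stood above 72.1% of the genes tested.

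The order by RPKM shifted with dose. At 50 mg/kg Slc9c1 and Adcy10 again overlapped, as did Lrrc52 and Kcnu1. In 100 mg/kg testes Lrrc52 averaged 41.2 RPKM and overlapped Slc26a8 at 42.8, both above Adcy10 at 33.8 and Slc9c1 at 31.1, which overlapped each other. These levels carry no correction for the trend with transcript length given further on, after which the log2 fold change at 100 mg/kg was 0.071 for Lrrc52 and -0.30 for Adcy10. At 200 mg/kg Adcy10 averaged 54.6 RPKM and stood second, ahead of Prkaca at 51.8, with no overlap between any neighbours.

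**Figure D1:**
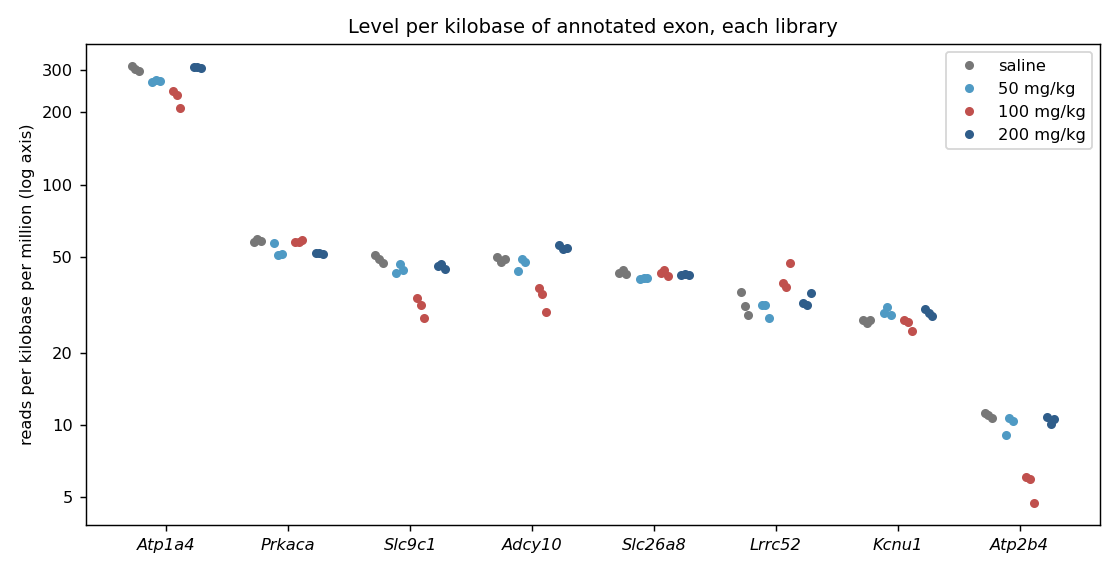
Level of the 8 genes in RPKM (log axis), one point per library, with saline, 50, 100 and 200 mg/kg from left to right for each gene. Atp1a4 lies far above the others, and the 100 mg/kg points of Slc9c1, Adcy10, Atp1a4 and Atp2b4 lie below those of the other groups.

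At 100 mg/kg, 4 of the 8 genes fell and 1 rose against saline: the calcium pump Atp2b4, the exchanger Slc9c1, the cyclase Adcy10 and the sodium pump Atp1a4 fell 1.32- to 1.96-fold, and the channel subunit Lrrc52 rose 1.29-fold. At 50 mg/kg Atp1a4 alone passed the test, 1.12-fold lower, and at 200 mg/kg Prkaca alone, 1.13-fold lower. The test was edgeR's quasi-likelihood test, with p adjusted over all genes tested by Benjamini and Hochberg's method and a threshold of 0.05. Of all 15682 genes, 17.2% passed at 50 mg/kg (9.21% higher, 8.02% lower), 52.4% at 100 mg/kg (25.6% higher, 26.8% lower) and 18.6% at 200 mg/kg (10.3% higher, 8.3% lower), so the shares of the 8 genes, 1, 5 and 1, lie near these backgrounds. The median log2 fold change of the 8 was -0.10 at 50 mg/kg, -0.23 at 100 mg/kg and -0.0089 at 200 mg/kg, where the medians of all genes were -0.00056, 0.0086 and -0.0013. The 3 comparisons use the same saline libraries and are not independent of each other.

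**Figure D2:**
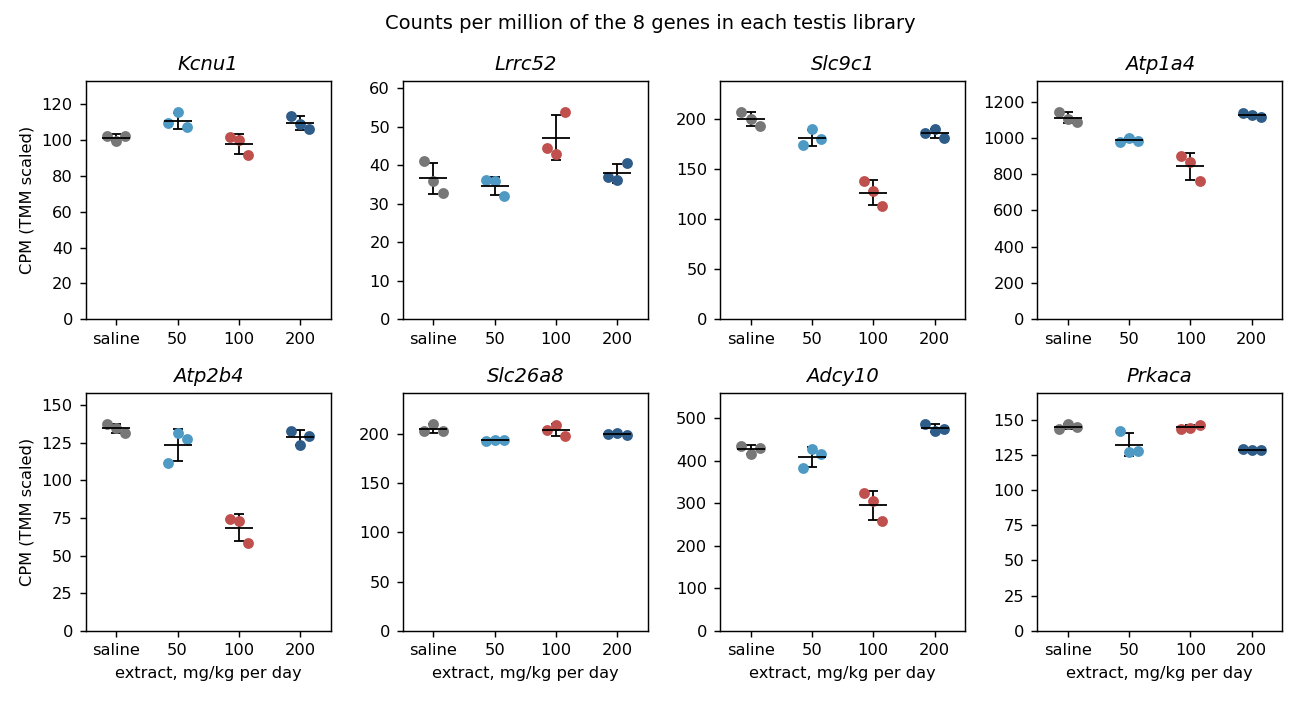
CPM (TMM scaled) of each of the 8 genes in every library, with saline and the 3 doses in mg/kg per day on the horizontal axis. Black lines show the mean and SD of 3 libraries, and Atp2b4 averages 68.5 CPM at 100 mg/kg with every other group at 123.5 CPM or more.

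The potassium channel of sperm is built from Kcnu1, the pore-forming SLO3 protein that opens as the cell becomes alkaline, and Lrrc52, its auxiliary subunit. Kcnu1 had 102, 99.3 and 103 CPM in the saline libraries, 109, 116 and 107 at 50 mg/kg, 102, 100.2 and 91.7 at 100 mg/kg, with 113, 109 and 106 at 200 mg/kg. The libraries at 50 and at 200 mg/kg lay above every saline library, and those at 100 mg/kg overlapped saline. Libraries that did not overlap saline were found for 37.6% of all genes at 50 mg/kg, 58.7% at 100 mg/kg and 39.2% at 200 mg/kg. The log2 fold changes of Kcnu1 against saline were 0.13 ± 0.052 (SE) at 50 mg/kg (adjusted p = 0.0921), -0.05 ± 0.052 at 100 mg/kg (adjusted p = 0.442) and 0.11 ± 0.052 at 200 mg/kg (adjusted p = 0.142), none of which passed.

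Lrrc52 stood at 41, 35.9 and 32.9 CPM in saline, 36.1, 35.9 and 31.9 at 50 mg/kg, 44.6, 42.9 and 53.8 at 100 mg/kg, with 36.9, 36.1 and 40.6 at 200 mg/kg. All 3 libraries at 100 mg/kg exceeded all 9 others. It averaged 47.1 ± 5.87 CPM at 100 mg/kg and 36.6 ± 4.11 CPM in saline (SD, n = 3 each), a log2 fold change of 0.36 ± 0.086 (adjusted p = 0.000992). Without the third 100 mg/kg library the value was 0.26 (adjusted p = 0.00193). After a correction for transcript length, described further on, it was 0.071 and the call was lost (adjusted p = 0.436, within 0.000329 to 0.436 over its alternatives).

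Per kilobase, the subunit and the pore were close in level. The ratio of Lrrc52 to Kcnu1 was 0.972 to 1.08 at 50 mg/kg, 1.4 to 1.92 at 100 mg/kg and 1.06 to 1.25 at 200 mg/kg, against 1.05 to 1.31 in saline. The ratios at 100 mg/kg lay above those of all other libraries. Lrrc52 has the shortest transcript of the 8 genes and this ratio was not corrected for length.

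Slc9c1 encodes the sperm-specific sodium/proton exchanger, which raises internal pH and in mice is needed for swimming. Its libraries held 206, 199 and 192 CPM in saline, 173, 189.5 and 179 at 50 mg/kg, 137, 128 and 113 at 100 mg/kg, with 186, 189 and 181 at 200 mg/kg. Every library of every dose lay below every saline library, but the size differed: 126 ± 12.5 CPM at 100 mg/kg, against 199 ± 7.14 CPM in saline (SD, n = 3 each). Slc9c1 fell at 100 mg/kg by 0.66 on the log2 scale (SE 0.057, adjusted p = 1.92e-09), and by 0.58 without the third library of that dose. Its values of -0.14 ± 0.056 at 50 mg/kg and -0.10 ± 0.056 at 200 mg/kg did not pass (adjusted p = 0.0867 and 0.208).

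Atp1a4, the alpha 4 subunit of the sodium/potassium pump, is found in male germ cells and sperm, and mice lacking it have sperm of poor motility. It had 1142, 1105 and 1085 CPM in saline, 979, 999.9 and 985 at 50 mg/kg, 901, 864 and 761 at 100 mg/kg, with 1135, 1127 and 1114 at 200 mg/kg. The groups at 50 and 100 mg/kg lay wholly below saline, and those of 200 mg/kg overlapped it. Atp1a4 fell at 100 mg/kg (log2 fold change -0.40 ± 0.046, adjusted p = 1.38e-07, and -0.33 without the third library of that dose). It also fell at 50 mg/kg (-0.17 ± 0.046, adjusted p = 0.0119). The call at 50 mg/kg was lost without saline library 1 (adjusted p = 0.0522) or 50 mg/kg library 3 (adjusted p = 0.0539), within 4.6e-07 to 0.0539 over its alternatives.

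Atp2b4, the plasma membrane calcium pump that expels calcium from the sperm tail, showed the largest fold change of the 8 as counted. After the length correction Slc9c1 lay further below saline at 100 mg/kg, at -0.58. The Atp2b4 libraries held 138, 134.5 and 131 CPM in saline, 112, 131 and 127 at 50 mg/kg, 74.2, 73.1 and 58 at 100 mg/kg, with 133, 123 and 129.7 at 200 mg/kg. The mean at 100 mg/kg was 68.5 ± 9.07 CPM, against 134.5 ± 3.13 CPM in saline (SD, n = 3 each), with no overlap. The log2 fold change of -0.97 ± 0.073 (adjusted p = 6.31e-10) became -0.86 without the third library and -0.53 after the length correction (adjusted p = 3.82e-11). At 50 and 200 mg/kg the libraries overlapped saline, with -0.12 ± 0.07 (adjusted p = 0.255) and -0.064 ± 0.07 (adjusted p = 0.578). After the length correction Atp2b4 passed at both doses, at -0.17 each (adjusted p = 0.00854 and 0.00853).

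Slc26a8 encodes an anion transporter of the sperm tail that works beside the chloride and bicarbonate channel CFTR. It was the steadiest of the 8, with 203, 210.3 and 202.5 CPM in saline, 192.5, 194 and 194 at 50 mg/kg, 204, 209.5 and 197.5 at 100 mg/kg, with 200.1, 201 and 199 at 200 mg/kg. Its log2 fold changes against saline were -0.085 ± 0.041 (adjusted p = 0.168), -0.012 ± 0.041 (adjusted p = 0.832) and -0.037 ± 0.041 (adjusted p = 0.594) in order of dose. None passed, although the libraries at 50 and 200 mg/kg lay below every saline library. The 95% interval of the value at 100 mg/kg ran from -0.097 to 0.074. The SD of its 4 group means on the log2 scale, 0.038, was at percentile 1.65 of the genes tested.

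Adcy10, the soluble adenylyl cyclase that bicarbonate activates, was low at 100 mg/kg and highest at 200 mg/kg. It had 436, 415 and 429 CPM in saline, 383, 428 and 415.5 at 50 mg/kg, 324, 305 and 258 at 100 mg/kg, with 487.5, 469 and 475 at 200 mg/kg. All libraries at 200 mg/kg exceeded all others, and all those at 100 mg/kg lay below all others. Adcy10 averaged 295.5 ± 33.9 CPM at 100 mg/kg and in saline 427 ± 10.5 CPM (SD, n = 3 each). The log2 fold change was -0.53 ± 0.059 (adjusted p = 1.72e-07), -0.44 without the third library and -0.30 after the length correction (adjusted p = 1.85e-07).

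At 200 mg/kg Adcy10 averaged 477 ± 9.26 CPM, a log2 fold change of 0.16 ± 0.059 that missed the threshold (adjusted p = 0.059). It passed under 6 of 20 alternatives, among them without the third 100 mg/kg library (adjusted p = 8.03e-05), without the first (adjusted p = 0.0165) and without all 3 libraries of that dose (adjusted p = 7.23e-05, added after the data were seen), within 2.65e-07 to 0.203 over its alternatives. These libraries are in neither group compared. They enter through what the fit shares: the estimate of spread, the count filter, the scaling and the adjustment of p. Which of these moved the call was not tested.

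Prkaca, the catalytic subunit of protein kinase A that cAMP frees, had its lowest mean at 200 mg/kg, where its libraries overlapped those of 50 mg/kg. It had 144, 147 and 145 CPM in saline, 142, 127 and 128 at 50 mg/kg, 144, 144 and 147 at 100 mg/kg, with 129, 129 and 128 at 200 mg/kg. The libraries at 50 and 200 mg/kg lay below every saline library and the 100 mg/kg libraries overlapped saline. At 200 mg/kg it averaged 129 ± 0.598 CPM, against 145 ± 1.83 CPM in saline (SD, n = 3 each), and fell by 0.17 on the log2 scale (SE 0.047, adjusted p = 0.0122). That call was lost without saline library 2 (adjusted p = 0.052, within 5.69e-05 to 0.052 over its alternatives).

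At 50 mg/kg the value of Prkaca was -0.14 ± 0.047, just outside the threshold (adjusted p = 0.0509), and it passed under 9 of 20 alternatives, within 0.00762 to 0.211. Its value at 100 mg/kg was -0.0041 ± 0.047 (adjusted p = 0.953) with a 95% interval from -0.10 to 0.093, and it passed as -0.11 after the length correction (adjusted p = 0.0308). Since the 2 starts shown above share 1 count, a shift between them would not be seen here.

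**Figure D3:**
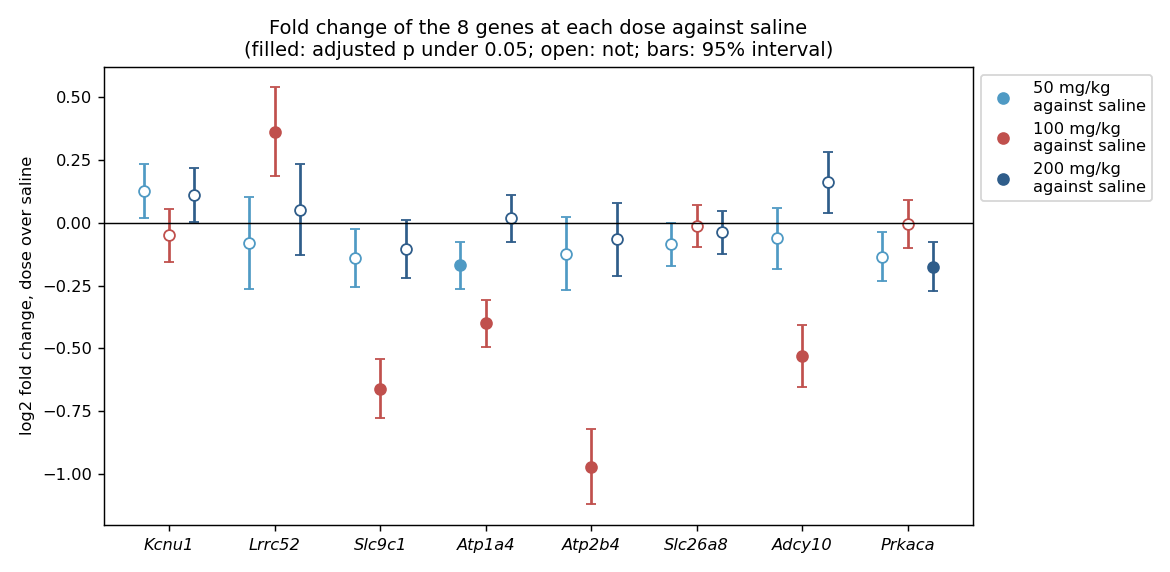
Log2 fold change of the 8 genes for 50, 100 and 200 mg/kg over saline, with 95% intervals, filled where the adjusted p was under 0.05. The 4 lowest points, from -0.40 to -0.97, are all at 100 mg/kg, and every other point below 0 is at -0.17 or nearer to 0.

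The third 100 mg/kg library bore on calls at doses it does not belong to. It enters through the spread, count filter, scaling and adjustment of p that all 12 libraries share, which were not separated. Without it the number of the 8 genes that passed was 5 at 50 mg/kg and 4 at 200 mg/kg. Kcnu1 then passed at 50 mg/kg (0.13, adjusted p = 0.0145) and 200 mg/kg (0.11, adjusted p = 0.0385), and Slc9c1 at 50 mg/kg (-0.14, adjusted p = 0.00324) and 200 mg/kg (-0.10, adjusted p = 0.027). Atp2b4 (-0.12, adjusted p = 0.0359) and Prkaca (-0.13, adjusted p = 0.00762) passed at 50 mg/kg too. Slc9c1 (adjusted p = 0.0371) and Prkaca (adjusted p = 0.0378) also passed at 50 mg/kg without 100 mg/kg library 1. Prkaca did so without 50 mg/kg library 1 (adjusted p = 0.0126) or 200 mg/kg library 3 (adjusted p = 0.0487). All of these values kept their direction. At 100 mg/kg itself Kcnu1 (0.0012), Slc26a8 (0.016) and Prkaca (-0.0066) still did not pass without it.

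The doses were also compared with each other. Of the 8 genes, 7 passed at 100 against 50 mg/kg, where 51.5% of all genes did (24.6% higher, 26.9% lower), with Lrrc52 and Prkaca higher and Kcnu1, Slc9c1, Atp1a4, Atp2b4 and Adcy10 lower. Again 7 passed at 200 against 100 mg/kg, where 53% of all genes did (27.8% higher, 25.2% lower), with the opposite directions. The log2 differences of 200 over 100 mg/kg were 0.91 ± 0.073 for Atp2b4 (adjusted p = 1.48e-09), 0.69 ± 0.059 for Adcy10 (adjusted p = 3.63e-09), 0.56 ± 0.057 for Slc9c1 (adjusted p = 2.38e-08) and 0.42 ± 0.046 for Atp1a4 (adjusted p = 6.07e-08). Their sizes depended on the processing. Over the alternatives, length correction among them, they ran from 0.365 to 0.975 for Atp2b4 and from 0.418 to 0.768 for Adcy10. For Slc9c1 they ran from 0.465 to 0.629 and for Atp1a4 from 0.345 to 0.477, and every one passed. Slc26a8 passed neither comparison, though without 100 mg/kg library 3 it was higher by 0.098 at 100 than at 50 mg/kg (adjusted p = 0.0259). After the length correction it passed both, at 0.14 for 100 against 50 mg/kg (adjusted p = 0.00221) and -0.099 for 200 against 100 mg/kg (adjusted p = 0.0304). Lrrc52 fell by 0.31 at 200 against 100 mg/kg (adjusted p = 0.00374), a sign that turned to 0.034 after the length correction (adjusted p = 0.73, within 0.00179 to 0.73 over its alternatives). The rise of Lrrc52 at 100 against 50 mg/kg, 0.44 (adjusted p = 0.000133), became 0.14 after that correction. That call was lost (adjusted p = 0.103, within 9.31e-06 to 0.103 over its alternatives).

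The Kcnu1 call of 0.16 ± 0.052 between 200 and 100 mg/kg (adjusted p = 0.011) was lost without 200 mg/kg library 1 (adjusted p = 0.0555) and after the length correction (adjusted p = 0.0721, within 0.00356 to 0.0721 over its alternatives). The Prkaca call of 0.13 ± 0.047 between 100 and 50 mg/kg (adjusted p = 0.0233) was lost without 50 mg/kg library 2 (adjusted p = 0.167, value 0.093), 50 mg/kg library 3 (adjusted p = 0.14) or 100 mg/kg library 2 (adjusted p = 0.0603), and after the length correction (adjusted p = 0.74, within 0.00453 to 0.74). Its call between 200 and 100 mg/kg, -0.17 ± 0.047 (adjusted p = 0.00413), was also lost after that correction (adjusted p = 0.42, within 0.00102 to 0.42).

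Few genes set the highest dose apart from the lowest. At 200 against 50 mg/kg 5.05% of all genes passed (2.54% higher, 2.51% lower), and 2 of the 8 did, Atp1a4 higher by 0.19 ± 0.046 (adjusted p = 0.0139) and Adcy10 higher by 0.22 ± 0.059 (adjusted p = 0.0267). The call of Atp1a4 was lost without any 1 of the 3 libraries of either group (adjusted p = 0.0503 to 0.0775), and that of Adcy10 without any of these but 50 mg/kg library 2 (adjusted p = 0.064 to 0.152). In the test of any difference among the 4 groups 7 of the 8 passed, all but Slc26a8 (adjusted p = 0.252), as did 64.3% of all genes. Along dose as a number, 0 of the 8 passed, 0 had an unadjusted p under 0.05 and 0 passed in DESeq2, where 0.223% of all genes passed in edgeR. The smallest unadjusted p among them was 0.103.

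Transcript length moved with the fold changes at 100 mg/kg. With all tested genes put in 5 groups of nearly equal number by length, the median log2 fold change of 100 mg/kg over saline was 0.29 in the shortest group (up to 1833 bases), 0.12, -0.0085 and -0.13 in the next ones, and -0.31 in the longest (over 5191 bases). The spread of these medians was far smaller at 50 mg/kg (-0.0089 to 0.026) and 200 mg/kg (-0.047 to 0.053). Lrrc52, with a longest transcript of 1143 bases, sits in the shortest group, and Atp2b4 (11725 bases) and Adcy10 (5569 bases) in the longest. Slc9c1 (3836 bases) is in the fourth group, whose median is well above its -0.66, and Atp1a4 (3470 bases) is in the third.

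As an alternative, each library was corrected for a lowess trend on length. The value against saline then was -0.58 for Slc9c1 (adjusted p = 2.28e-12), -0.53 for Atp2b4, -0.35 for Atp1a4 (adjusted p = 1.27e-09) and -0.30 for Adcy10. All 4 stayed below saline and past the threshold, and Lrrc52 did not. Kcnu1 (0.13, adjusted p = 0.0411), Slc9c1 (-0.14, adjusted p = 0.0232) and Prkaca (-0.13, adjusted p = 0.0247) passed at 50 mg/kg after this correction, and Adcy10 at 200 mg/kg (0.12, adjusted p = 0.0242). What sets the length trend was not tested.

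**Figure D4:**
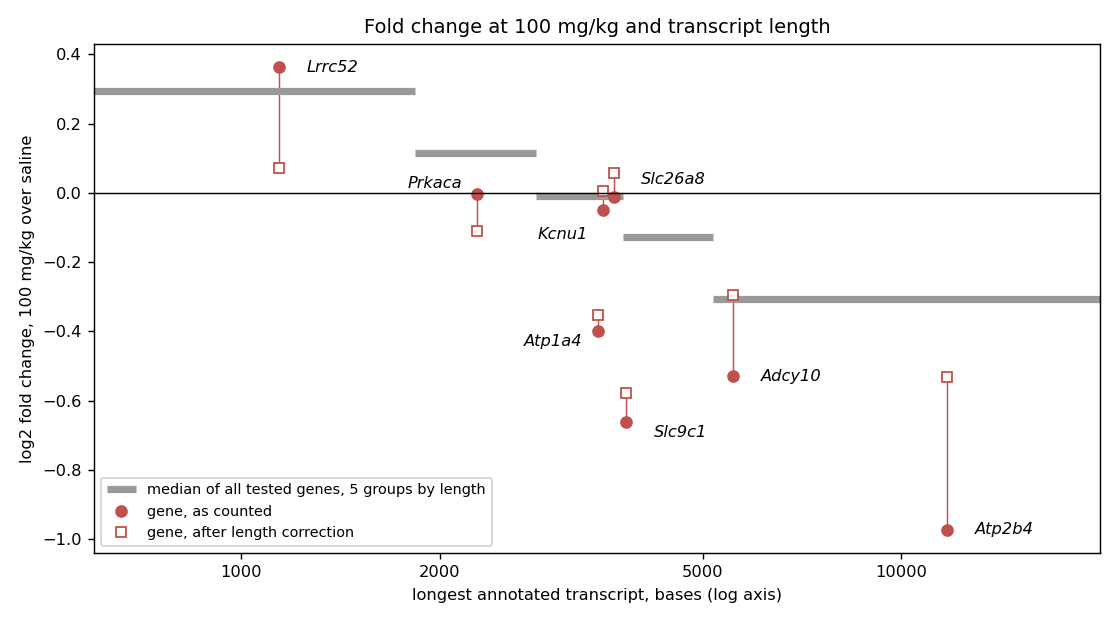
Log2 fold change of 100 mg/kg over saline against the longest annotated transcript in bases (log axis, the range of the 8 genes), as counted (filled) and after the length correction (open), with grey bars for the median of all tested genes in each of the 5 length groups. Atp2b4 is at -0.97 as counted and -0.53 corrected, and Lrrc52 at 0.36 as counted and 0.071 corrected.

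Germ cell markers moved at the same dose, 100 mg/kg, where 25.6% of all genes rose and 26.8% fell. Of 12 spermatocyte markers 1 rose and 7 fell at 100 mg/kg, and their summed level was 1209 to 1301 CPM at 100 mg/kg, against 1798 to 1828 CPM in saline. It was 1738 to 1781 CPM at 50 mg/kg (4 rose and 2 fell) and 1614 to 1646 CPM at 200 mg/kg (3 rose and 5 fell). Of 12 round spermatid markers 11 rose and 1 fell at 100 mg/kg, with sums of 2866 to 3158 CPM, against 2539 to 2579 CPM in saline. The sums were 2390 to 2527 CPM at 50 mg/kg (1 rose and 2 fell) and 2451 to 2488 CPM at 200 mg/kg (0 rose and 1 fell). Of 12 elongating spermatid markers 8 rose and 2 fell at 100 mg/kg, with sums of 27680 to 32310 CPM, against 25900 to 26430 CPM in saline. At the other doses these sums lay below saline, at 24440 to 25550 CPM at 50 mg/kg (0 rose and 1 fell) and 23260 to 25120 CPM at 200 mg/kg (0 rose and 2 fell). Of 10 spermatogonia markers 3 rose and 3 fell at 100 mg/kg, and 0 rose and 1 fell at each of the other doses. These values, and those of the somatic cell markers below, carry no correction for the trend with transcript length. For 100 mg/kg over saline, median log2 fold changes were -0.32 (spermatocyte list), 0.28 (round spermatid list) and 0.33 (elongating spermatid list). The longest and shortest length groups of all genes had medians of similar size, -0.31 and 0.29. How much of the marker changes goes with transcript length was not tested. The part of these markers in the changes of the 8 genes was not tested.

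Markers of somatic cells moved at the other doses too. Of all genes, 9.21% rose and 8.02% fell at 50 mg/kg, and 10.3% rose and 8.3% fell at 200 mg/kg. Of 12 Sertoli cell markers, 0 rose and 7 fell at each of 50 and 200 mg/kg, with sums of 1070 to 1143 CPM at 50 mg/kg and 999 to 1002 CPM at 200 mg/kg, against 1326 to 1346 CPM in saline. At 100 mg/kg 1 rose and 4 fell, at 1225 to 1363 CPM. Of 8 Leydig cell markers 2 rose and 4 fell at 50 mg/kg, 0 rose and 5 fell at 100 mg/kg and 0 rose and 4 fell at 200 mg/kg. Of 9 macrophage markers 0 rose and 6 fell at 200 mg/kg, with sums of 93.1 to 99.8 CPM, against 130.2 to 135 CPM in saline. Of 6 endothelial markers 1 rose and 1 fell at 100 mg/kg, of 6 tested peritubular markers 2 rose and 1 fell, and of 4 tested blood markers 2 rose and 0 fell. Their part in the values of Atp1a4 at 50 mg/kg and Prkaca at 200 mg/kg was not tested either.

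Other ion transport genes of sperm, a list of 51 of which 46 could be tested, changed in both directions. At 100 mg/kg 11 rose and 17 fell (median log2 fold change -0.14), where 25.6% of all genes rose and 26.8% fell. At 50 mg/kg 4 rose and 4 fell (median 0.0034), where 9.21% of all genes rose and 8.02% fell. At 200 mg/kg 6 rose and 8 fell (median 0.028), where 10.3% of all genes rose and 8.3% fell. Among the 4 genes of the list with the smallest p in the test of any difference among groups were Cftr, Orai1 and Plcd4.

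Cftr, the chloride and bicarbonate channel, rose at 50 mg/kg (0.76 ± 0.09, adjusted p = 1.69e-06) and 200 mg/kg (1 ± 0.089, adjusted p = 1.16e-08). It averaged 32.5 and 38.5 CPM there, against 19.3 CPM in saline. At 100 mg/kg its value of 0.17 did not pass (adjusted p = 0.141), but it did as 0.45 after the length correction (adjusted p = 1.74e-05) and as 0.27 without the third library of that dose (adjusted p = 0.00733). Orai1, a store-operated calcium channel, rose at 100 mg/kg (0.97 ± 0.12, adjusted p = 3.46e-07), with 21.9 ± 3.3 CPM, against 11.2 ± 0.38 CPM in saline (SD, n = 3 each). Plcd4, a phospholipase C of the acrosome reaction, fell at 100 mg/kg (-0.49 ± 0.054, adjusted p = 8.95e-08, and -0.32 after the length correction).

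For the calcium pumps the ratio did not set 100 mg/kg apart from saline. Atp2b1, the widely expressed relative of Atp2b4, fell at 100 mg/kg as well (-0.91 ± 0.12, adjusted p = 1.18e-06), with 10.8 CPM, against 20.4 CPM in saline, and stood at -0.59 after the length correction. Per kilobase Atp2b4 stood 7.18 to 8.51 times above Atp2b1 at 100 mg/kg and 7.8 to 8.53 times above it in saline, which overlap. The ratio was 6.68 to 8 at 50 mg/kg and 8.3 to 8.87 at 200 mg/kg. Both overlapped saline but not each other. Atp2b1 was chosen for its kinship with Atp2b4 after values were seen.

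Among the 4 genes of the ion list that rose at 50 mg/kg were Cftr, the IP3 receptor Itpr3 (0.46) and the calcium pump Atp2a3 (0.85), and among the 4 that fell were the carbonic anhydrase Car2 (-0.21), the calcium channel Cacna1h (-0.21) and the anion exchanger Slc4a2 (-0.29). The calls of Atp2a3, Car2 and Slc4a2 were lost on leaving out 1 library of saline or 50 mg/kg (adjusted p = 0.0588 to 0.0773).

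Other cAMP and protein kinase A genes, a list of 58 of which 55 could be tested, also went both ways. At 100 mg/kg 14 rose and 20 fell (median log2 fold change -0.10), where 25.6% of all genes rose and 26.8% fell. At 50 mg/kg 4 rose and 6 fell (median 0.033), where these shares were 9.21% and 8.02%. At 200 mg/kg 7 rose and 5 fell (median -0.013), where they were 10.3% and 8.3%. The 4 genes with the smallest p among groups were Cnbd2, Akap9, Akap11 and Rapgef4. Akap11, a scaffold that anchors protein kinase A, fell by 0.93 at 100 mg/kg (SE 0.083, adjusted p = 3.46e-09), with 28.2 ± 4.8 CPM, against 53.8 ± 1.4 CPM in saline (SD, n = 3 each), and by 0.54 after the length correction. Akap9, another scaffold, fell by 0.91 at that dose (SE 0.086, adjusted p = 9.33e-09), or by 0.44 after that correction, and it rose at 50 mg/kg (0.25 ± 0.079, adjusted p = 0.0308).

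Cnbd2, a cyclic nucleotide-binding protein of spermatogenesis, rose at 100 mg/kg (0.65 ± 0.054, adjusted p = 1.05e-09) and 200 mg/kg (0.59 ± 0.054, adjusted p = 2.31e-08). It had 134 and 128 CPM at these doses, against 85.3 CPM in saline. Rapgef4, an exchange factor that cAMP activates without the kinase, rose at 50 mg/kg (1.06 ± 0.14, adjusted p = 8.28e-06) and 100 mg/kg (0.63 ± 0.14, adjusted p = 0.000783) and fell at 200 mg/kg (-0.86 ± 0.17, adjusted p = 0.00114). Its levels were low, at 8.77, 6.53 and 2.33 CPM in order of dose, against 4.22 CPM in saline. Plcd4 overlaps Zfp142 and Usp37, Cnbd2 overlaps Scand1 and Akap9 overlaps Cyp51 on the opposite strand, so their reads may be shared.

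The regulatory subunit gene Prkar1a, whose protein holds the kinase inactive, was chosen after values were seen. It fell at 50 mg/kg (-0.17, adjusted p = 0.00621) and 200 mg/kg (-0.20, adjusted p = 0.00131) and stood at 0.031 at 100 mg/kg (adjusted p = 0.556). With Rapgef4 and Akap9, the 4 list genes that rose at 50 mg/kg included the scaffold Akap10 (0.18) and the transcription factor Crem (0.14). The calls of Akap9, Akap10 and Crem were lost on leaving out 1 of several libraries of saline or 50 mg/kg (adjusted p = 0.0532 to 0.181). The 5 that fell at 200 mg/kg were Prkar1a, Rapgef4, the scaffold Akap1 (-0.15), the phosphodiesterase gene Pde1b (-0.42) and Pde6d (-0.23), named as a subunit of another phosphodiesterase. The calls of Akap1, Pde1b and Pde6d were lost on leaving out 1 library of saline or 200 mg/kg (adjusted p = 0.0592 to 0.127).

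For each of the 8, the 3 genes with the most similar profile over the 12 libraries were found by the root mean square (RMS) difference of centred log2 CPM, among 10978 genes of at least 5 CPM. For Slc9c1 they were Mtor at 0.026, Fndc3a at 0.039 and Hsp90aa1 at 0.04, where the RMS deviation of Slc9c1 from its own mean was 0.27. For Adcy10 they included Nup153 at 0.036 and Ankrd17 at 0.04, those of Atp2b4 included Pank3 at 0.044 and Trip12 at 0.06, and those of Atp1a4 were Kat7 at 0.028, Smarca4 at 0.033 and Nup205 at 0.034. For Lrrc52 they were Tgif2lx1 at 0.062, Ppp5c at 0.071 and Yipf3 at 0.072.

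The 3 genes that varied least have neighbours that vary little too, which follows from choosing them by smallest difference and is no separate result. For Kcnu1 these were Arih1 at 0.027, Adam3 at 0.036 and Zfp687 at 0.037, for Slc26a8 Ldha at 0.021, Tsc22d1 at 0.025 and Rnf19b at 0.025, and those of Prkaca included Csnk1d at 0.028 and Dyrk3 at 0.035. None of the 8 was among the 3 nearest of another. Scaling by library size alone kept all 3 neighbours of every gene. The length correction kept 1 of 3 for Lrrc52 and Atp1a4 and 0 of 3 for the other 6.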

How the data were processed

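Polyadenylated RNA of frozen testis was sequenced from a stranded kit, per the labels' protocols. The deposited values are whole-number read counts per gene for 12 libraries. Trimmomatic, STAR, featureCounts, DESeq2, mm10 and GRCm38 are listed in the submitters' processing notes, and no source used here gives versions, annotation or strand setting. Groups follow the titles. Of 21959 genes, 21902 were matched to a GENCODE M21 symbol.

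Counts were fitted in R 4.3.3 with edgeR 4.0.16 (filterByExpr, TMM, robust quasi-likelihood, 4 groups, 8 residual degrees of freedom), with Benjamini-Hochberg adjustment over 15682 genes and a threshold of 0.05. The common biological coefficient of variation was 5.01%. Total counts of 14382378 to 19118265 set the counting precision. In counts simulated for saline and 50 mg/kg over 15682 genes, 50 genes were changed at each of 4 sizes. The test found 42% of those changed 1.2-fold, 68% at 1.5-fold, 76% at 2-fold and 100% at 4-fold, and 4.03% of its calls were false. Intervals are 95%.

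The 8 genes, the lists and the length correction (lowess, span 0.3) were chosen with earlier results of these data known. Besides the 8, the rule named 4 genes a list by p among groups and the 3 nearest profiles. Other list genes were named where a count was 5 or fewer. Some genes that the rule took are kept in the counts and not reported here. Alternatives were RLE factors, library size alone, no count filter, length correction, replicate block, the groups compared alone, DESeq2 1.42.0 and leaving out each library.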

Additional observations from a re-analysis of the deposited data

How the results depend on the processing

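Of the 8 genes, 5 passed at 100 mg/kg against saline under every alternative run, but after the length correction Prkaca stood among them and Lrrc52 did not. At 50 mg/kg against saline, where 1 passed, the number was 2 with RLE factors, 2 with library size alone, 3 without the count filter, 5 after the length correction, 5 in a fit of the groups compared alone, 5 without the 100 mg/kg libraries (added after the data were seen), and 0 to 5 on leaving out 1 library. At 200 mg/kg against saline, where 1 passed, it was 2 with library size alone, 3 after the length correction, 4 in the fit of the groups alone, 4 without the 100 mg/kg libraries, and 0 to 4 on leaving out 1 library. At 200 against 50 mg/kg it was 0 to 2 on leaving out 1 library. Over all genes, the 2914 calls at 200 mg/kg against saline became 4439 in the fit of the groups alone and 1941 to 4181 on leaving out 1 library, and the 2701 at 50 mg/kg 1714 to 4013. The 792 calls of 200 against 50 mg/kg became 1563 in the fit of the groups alone, 1689 without the 100 mg/kg libraries and 462 to 1690 on leaving out 1 library. The 35 along dose became 109 after the length correction, 305 in DESeq2 and 5 to 89 on leaving out 1 library. The largest of these numbers over all genes on leaving out 1 library (4181, 4013, 1690 and 89) each came without 100 mg/kg library 3. The cause was not tested. Among the named genes, a change of sign in which either value passed the test came only with the length correction: Lrrc52 at 200 against 100 mg/kg was 0.034, and at 100 mg/kg against saline Car2 was -0.0095, Cacna1h 0.048 and Prkar2a 0.16. Over 18 pairs of libraries that share a replicate number, deviations correlated at -0.12 to 0.049, so no strong pairing by number was seen. A weaker one might not show with 3 libraries a group. With replicate number as a block, the number of the 8 genes that passed was the same in each comparison (1, 5 and 1 against saline), and the calls along dose were 6. Counts from 3 libraries a group limit what small changes can be seen. On counts simulated over 15682 genes, 42% of 1.2-fold changes were recovered, a share that was not worked out for the 8 genes.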
